A study of Mus musculus with 4 samples.

Results

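RIF1 peaks at single coding promoters are the narrow intervals of RIF1 occupancy that lay at the start of 1 protein-coding gene with no other gene starting nearby. A peak was a member if it lay on an autosome, was under 50 kb wide and overlapped the 1 kb on either side of the annotated 5′ end of a coding gene. The gene had to have no 5′ end of another annotated gene within 5 kb, and the peak had to hold no transcript start of another coding gene. Of the 15635 autosomal peaks, 4477 (28.6%) were members. They lay at 4360 genes, of which 4243 had 1 member peak and 117 had 2, and no member was shared between genes.

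The peaks come from chromatin immunoprecipitation followed by sequencing (ChIP-seq) of primary splenic B cells with an anti-HA antibody. Rif1FH cells (2 samples) were from Rif1FH/FH mice, in which endogenous RIF1 carries an N-terminal Flag and HA tag, and Rif1WT cells (2 samples) were from C57BL/6 Rif1WT/WT mice and carry untagged RIF1, as the negative control. Both groups were isolated with anti-CD43 beads, which remove cells other than resting B cells, cultured with 5 µg/ml lipopolysaccharide (LPS) and 5 ng/ml interleukin 4 (IL-4) for 72 h, and crosslinked with 2 mM disuccinimidyl glutarate and 1% formaldehyde before shearing to 200 to 600 bp. The mice were on a C57BL/6 background, both sexes were used and their age was not given in the sources used here. The antibody label names the bead reagent in place of the anti-HA antibody of the protocol.

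The analysed list holds 16332 intervals kept from both Rif1FH samples, as positions without a height or a value per sample. Neither read depth nor replicate spread nor the level in Rif1WT cells is known for any peak, so no test between samples was possible, and the B cell identity of the samples cannot be checked against expression. Intervals given with a share are 95% Wilson intervals, those given with a median are exact order statistic intervals, and both cover counting error only. A promoter without a peak is one without a listed member peak. A peak at another 5′ end of the same gene, outside the window of the rule, was not counted.

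RIF1 is a large chromatin protein that recruits protein phosphatase 1 and helps set when each part of the genome is replicated. In B cells it also acts downstream of 53BP1 to protect DNA ends during class switch recombination. Most mammalian promoters of widely expressed genes are CpG islands, stretches rich in unmethylated CG dinucleotides, whereas many promoters of tissue-restricted genes have few CG dinucleotides.

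The sequences below show this difference, along which the share of promoters with a RIF1 peak varied widely. Each is the 200 bases before the annotated 5′ end on the strand of the gene, 5′ to 3′, in build mm9, with every CG dinucleotide in capitals. Gins3, which encodes a subunit of the replicative helicase (chr8:98157259-98157458, plus strand), had a CpG-rich promoter with a peak and 17 CG dinucleotides in these bases. Blnk, a B cell receptor adaptor (chr19:41069026-41069225, minus strand), had a CpG-poor promoter with a peak and 3. Afp, the fetal liver gene for alpha-fetoprotein (chr5:90919540-90919739, plus strand), had a CpG-poor promoter without a peak and 1.
Gins3: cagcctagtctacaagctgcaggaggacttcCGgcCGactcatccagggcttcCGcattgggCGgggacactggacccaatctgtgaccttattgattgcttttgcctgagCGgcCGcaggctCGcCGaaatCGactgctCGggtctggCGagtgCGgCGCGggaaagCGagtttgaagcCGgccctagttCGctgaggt
Blnk: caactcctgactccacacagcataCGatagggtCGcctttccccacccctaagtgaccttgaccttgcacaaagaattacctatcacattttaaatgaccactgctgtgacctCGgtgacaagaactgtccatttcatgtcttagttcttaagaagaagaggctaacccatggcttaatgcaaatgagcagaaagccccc
Afp: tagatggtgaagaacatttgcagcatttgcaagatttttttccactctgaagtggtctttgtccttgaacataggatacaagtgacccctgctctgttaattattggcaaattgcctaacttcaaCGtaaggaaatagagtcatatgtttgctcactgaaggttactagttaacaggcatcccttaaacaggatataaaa

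A second pair shows the core site of ETS factors (CCGGAAG, or CTTCCGG on the other strand). Among the motifs searched, it had the widest gap in the share with a peak between CpG-rich promoters with and without it. This holds outside the wide intervals described below. The core is in capitals within 30 bases. In Gins3 (chr8:98157274-98157303, plus strand) it began 173 bases before the 5′ end, and in Eif1b, a gene of translation initiation (chr9:120401562-120401591, plus strand), 150 bases before it.
Gins3: gctgcaggaggaCTTCCGGccgactcatcc
Eif1b: tcgccgttgcacCCGGAAGcgcctccgccc

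To ask how common such peaks were, all genes that could have carried one were counted. Single coding promoters numbered 15296, which is 71.4% of the 21418 autosomal coding genes. A member peak lay at 4360 of them, or 28.5% (27.8 to 29.2%). A further 31 promoters had only a peak that also held a start of another coding gene, and were counted as without a peak. The share was limited by the wide intervals of the list, which were taken to be the broad RIF1-associated domains called by the authors and in which no peak is listed. These held 3162 single promoters (20.7%), so that a peak was present at 35.9% (35.1 to 36.8%) of the 12134 promoters outside them. Both denominators are used here, and a promoter in a wide interval is not one without RIF1.

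Members were wider than peaks away from gene starts. Their median width was 1579 bp (1550 to 1609 bp), and the middle part of the distribution ran from 1108 bp (lower quartile) to 2181 bp (upper quartile). Single members were as narrow as 303 bp and as wide as 12602 bp. Peaks at other coding promoters (1808) had a median of 1616 bp, peaks at starts of noncoding genes only (425) had 1443 bp, and peaks away from gene starts (8925) had 1202 bp. Only 19.3% of members were under 1 kb wide, against 37.7% of peaks away from gene starts, whereas peaks of at least 4 kb were similarly rare in both (2.52% and 2.31%). A wider interval meets a promoter window more easily, and the part of this in the difference was not tested. Members also stood farther from other peaks than peaks away from gene starts did. The median gap from a member to the nearest other peak was 23.3 kb, against 10.5 kb for peaks away from gene starts, and 29.8% of members had a neighbour within 10 kb, against 49.0%. Peaks at other coding promoters were close to members in this, with a median gap of 22.1 kb and a neighbour within 10 kb for 31.6%.

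**Figure D1:**
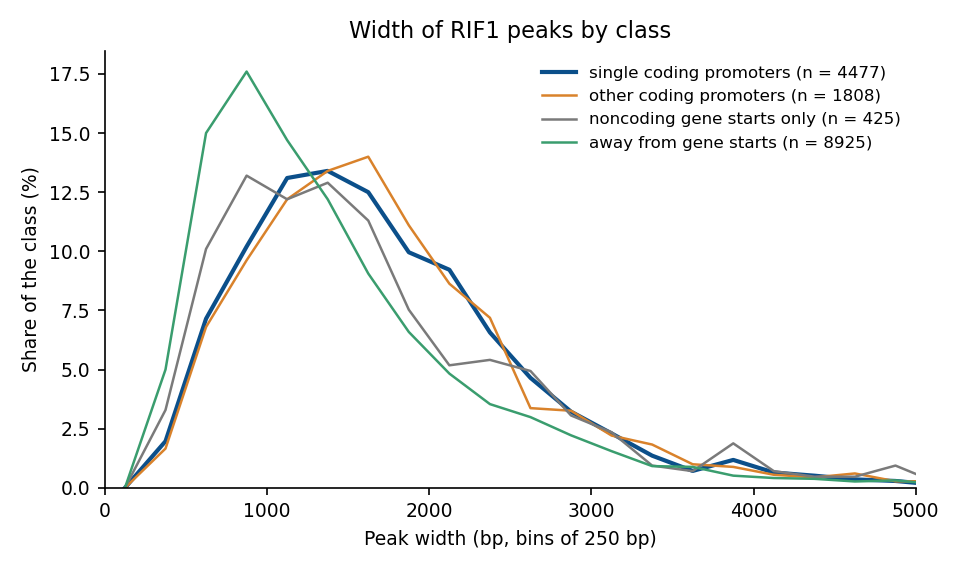
Share of peaks (%) in each 250 bp bin of width (bp), for members (single coding promoters, blue), other coding promoters (orange), starts of noncoding genes only (grey) and peaks away from gene starts (green), up to 5000 bp. The members' curve lies to the right of that of peaks away from gene starts, with medians of 1579 and 1202 bp, and close to that of other coding promoters, at 1616 bp.

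The widest member, of 12602 bp, lay at Klf9 (chr19:23206490-23219091), which encodes a transcription factor of the Krüppel-like family, and reached from 9226 bp upstream to 3375 bp downstream of its 5′ end. It was followed by the peaks at Rps6ka5 (9299 bp), the gene of a stress-activated kinase of histone H3, and at Trim56 (9257 bp), the gene of a ubiquitin ligase of innate immunity. The peaks at 2210016F16Rik (8212 bp) and 5031414D18Rik (7441 bp) completed the 5 widest. All 5 covered the 5′ end, but they extended in different directions. At Klf9 and Rps6ka5 the midpoint lay 2926 and 3560 bp upstream, and at Trim56, 2210016F16Rik and 5031414D18Rik 2401, 2502 and 3682 bp downstream. The narrowest members lay at Sik3 (303 bp), Irf5 (307 bp) and Hbb-b2 (312 bp). Irf5 encodes an interferon regulatory factor downstream of Toll-like receptors and had a second member of 1461 bp on the other side of its 5′ end. Hbb-b2, a beta-globin gene of red blood cells, has a near copy in Hbb-b1, and the reads behind this peak were not examined.

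Where the peaks lay relative to the 5′ end was examined next. The window of the rule partly sets these positions, which are given as a description. The annotated 5′ end was within the peak for 3719 members (83.1%, 81.9 to 84.1%). The midpoint lay a median of 61 bp downstream (47 to 76 bp), with quartiles at 234 bp upstream and 350 bp downstream, and was within 500 bp of the 5′ end for 71.1% of members. The median upstream edge was at 744 bp and the median downstream edge at 884 bp. An annotated start codon of the gene was covered by 57.3% (55.8 to 58.8%) of the 4448 members at genes with one. Of all bases in members, 47.0% lay outside the gene, 19.4% in its exons and 33.6% in its introns. For 30.3% of members the midpoint was nearer to another annotated 5′ end of the same gene, and measured to the nearest such end the median distance was 236 bp (225 to 246 bp).

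**Figure D2:**
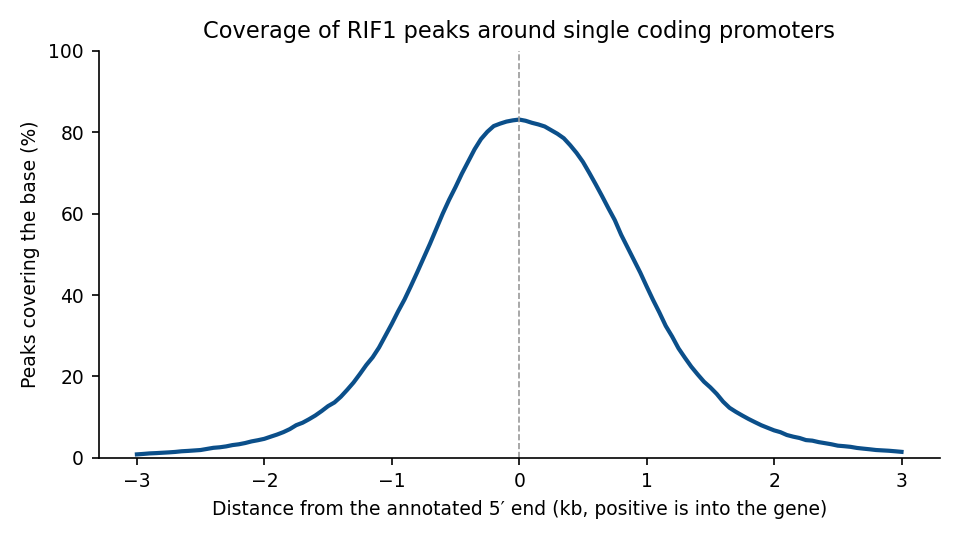
Share of the 4477 members (%) whose peak covers each position, by distance from the annotated 5′ end in kb, with positive values inside the gene. Coverage was highest at the 5′ end itself, at 83.1%, and was 66.5% at 500 bp upstream and 72.7% at 500 bp downstream.

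Covering the 5′ end depended on width by construction, as 60.2% of members covered it in the narrowest of 4 groups of like size by width, against 84.5, 91.5 and 96.1% in the wider groups. The median offset, by contrast, was downstream in each of these groups, at 37, 70, 52 and 94 bp. Members that did not cover the 5′ end were mostly close to it, with 573 at 1 to 500 bp and 185 at over 500 bp. The members nearest to the edge of the window were at Gm7535 (1000 bp), Zcchc11 (983 bp) and Pcdh9 (980 bp). The nearest peaks beyond it, which are no members, were at 2310016C08Rik (1003 bp), Sephs1 (1011 bp) and Il7r (1025 bp), and 243 such peaks lay within 2000 bp. Of the genes with 2 members, 2810030E01Rik and Aebp2 had one on each side of the 5′ end, 415 and 651 bp apart, and 1110020G09Rik had one over the 5′ end and one 618 bp further downstream.

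It was then asked which promoters carried a peak, beginning with CpG content. A promoter was called CpG-rich if any 500 bp window within 1 kb of the 5′ end had a GC content of at least 55% and a ratio of observed to expected CG dinucleotides of at least 0.75, CpG-poor if no window reached a ratio of 0.48, and intermediate otherwise. A peak was listed at 3455 of 6487 CpG-rich promoters (53.3%), 702 of 3123 intermediate promoters (22.5%) and 203 of 5686 CpG-poor promoters (3.57%). Outside wide intervals these shares were 68.3% (67.0 to 69.5%), 29.5% (27.7 to 31.4%) and 4.32% (3.78 to 4.94%). CpG-rich promoters made up 42.4% of single promoters and 79.2% of those with a peak.

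The share rose step by step with the CG ratio of the 1 kb around the 5′ end. Outside wide intervals it was 1.78% (1.16 to 2.73%) at ratios under 0.1, 14.3% (12.2 to 16.6%) at 0.3 to 0.4, 50.0% (46.6 to 53.4%) at 0.5 to 0.6 and 69.7% (67.2 to 72.0%) at 0.7 to 0.8. Above this it levelled, as 73.0% at 0.8 to 0.9, 70.9% at 0.9 to 1 and 75.8% at higher ratios had overlapping intervals. GC content gave a like curve, from 1.73% at 35 to 40% GC to 64.7% at 70 to 75% GC. Within CpG-rich promoters the share was 67.2% at 45 to 50% GC, 72.3% at 50 to 55% GC and 73.7% at 55 to 60% GC. It was lower above this, at 65.1% at 60 to 65% GC and 64.5% at 65 to 70% GC. The lower bins held few CpG-rich promoters, with a peak at 2 of 2 at 35 to 40% GC and 13 of 21 at 40 to 45% GC. The median GC content of CpG-rich promoters was 61.0% with a peak and 62.5% without.

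**Figure D3:**
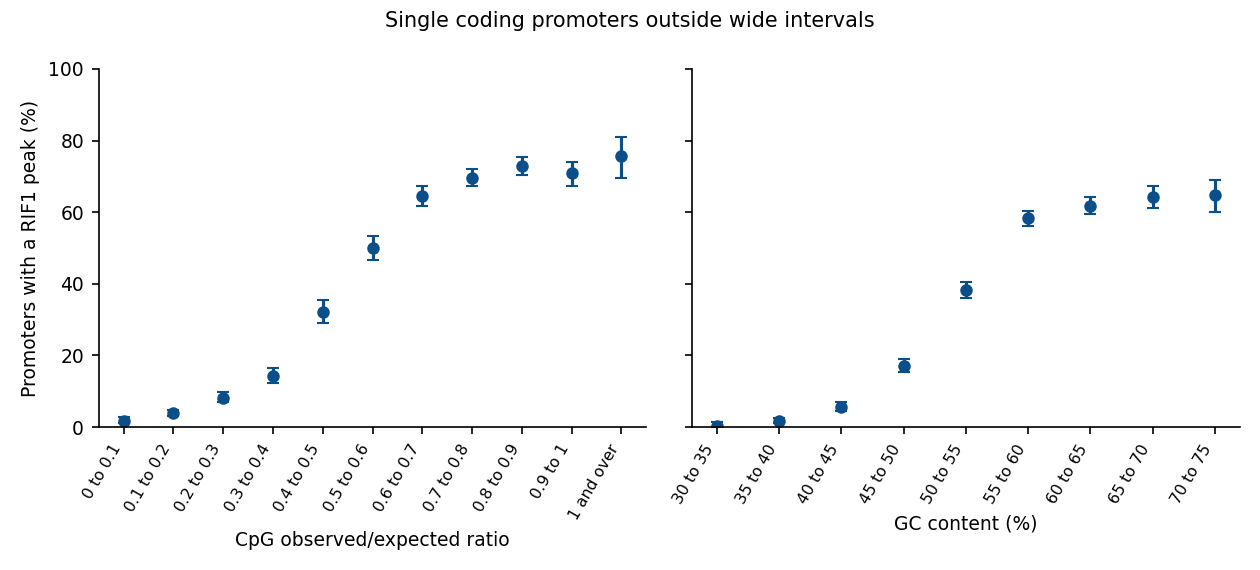
Share of single coding promoters outside wide intervals with a RIF1 peak (%), in bins of the ratio of observed to expected CG dinucleotides (left) and of GC content in % (right), both over 1 kb centred on the 5′ end. Points are shares and bars 95% Wilson intervals. The share rises from 1.78% in the bin of the lowest ratios to 75.8% in that of the highest and levels above a ratio of 0.7.

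The members of the CpG classes differed in width and in position. The 3562 members at CpG-rich promoters had a median width of 1609 bp (1572 to 1639 bp), the 708 at intermediate promoters 1416 bp (1357 to 1473 bp) and the 207 at CpG-poor promoters 1709 bp (1581 to 1827 bp). The 5′ end was covered by 82.8% (81.5 to 84.0%), 87.0% (84.3 to 89.3%) and 74.9% (68.6 to 80.3%) of them. Midpoints lay within 500 bp of the 5′ end for 71.3% of members at CpG-rich promoters but for 54.1% (47.3 to 60.8%) at CpG-poor promoters. Members at CpG-poor promoters also had closer neighbours, with a median gap of 10.4 kb to the nearest other peak against 24.4 kb at CpG-rich promoters. In their spacing they were thus near to peaks away from gene starts, whose median gap was 10.5 kb.

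CpG-poor promoters with a peak also belonged to longer genes. The median gene span was 19.6 kb with a peak and 5.65 kb without, and the most exons in any transcript numbered 8 and 4 at the median. In CpG-rich promoters the medians were close, at 35.0 kb with a peak and 40.2 kb without, and 10 exons in both. At the extremes, CpG-rich genes of 10 to 20 kb had a peak in 73.5% of cases, those under 2 kb in 51.2% and those over 500 kb in 39.8%. Of the 4697 CpG-poor promoters outside wide intervals, 929 belonged to olfactory and 278 to vomeronasal receptors, which are described with the gene families. Of these, 1 olfactory and 0 vomeronasal promoters had a peak. The part of these families in the lower medians without a peak was not tested.

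Short motifs were then searched on both strands from 250 bases before to 50 bases after the 5′ end, and compared within a CpG class and outside wide intervals. A match is a run of letters and says nothing of a bound factor. In CpG-rich promoters the ETS core shown above was present in 18.3% (17.0 to 19.6%) of those with a peak and 8.78% (7.49 to 10.3%) of those without. Seen the other way, 81.8% (78.9 to 84.3%) of promoters with the core had a peak, against 65.8% (64.4 to 67.2%) without it. With promoters in wide intervals included, 12.6% (11.4 to 13.8%) of CpG-rich promoters without a peak held the core, so the gap was smaller. The core was present in 8.71% of all single promoters.

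Other motifs of CpG-rich promoters differed less. The CCAAT box (CCAAT), the site of the factor NF-Y, was in 37.8% of promoters with a peak and 29.8% of those without, the E-box of MYC and USF factors (CACGTG) in 12.0 and 8.28%, and the NRF1 site (GCGCATGC) in 5.93 and 4.05%. With promoters in wide intervals included, CpG-rich promoters without a peak held them in 33.7, 9.89 and 5.44%. Over all single promoters these were present in 37.4, 7.39 and 2.89%. The GC box of SP and KLF factors (GGGCGG) was in 72.4 and 69.5%, with overlapping intervals. The intervals also overlapped for the ZBTB33 palindrome (CTCGCGAG), the YY1 site (AAGATGG), the octamer (ATGCAAAT), the E2F site (TTTGGCGC), the cyclic AMP response element (TGACGTCA) and the NF-κB site (GGGACTTTC). The quadruplex motif, 4 runs of at least 3 G with loops of 1 to 7 bases, went the other way, at 31.8% (30.3 to 33.4%) with a peak and 39.5% (37.2 to 42.0%) without, although over all single promoters outside wide intervals it was in 29.0 and 14.6%. With promoters in wide intervals included, the quadruplex motif was in 35.9% of CpG-rich promoters without a peak. GC boxes and quadruplex motifs can share letters.

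**Figure D4:**
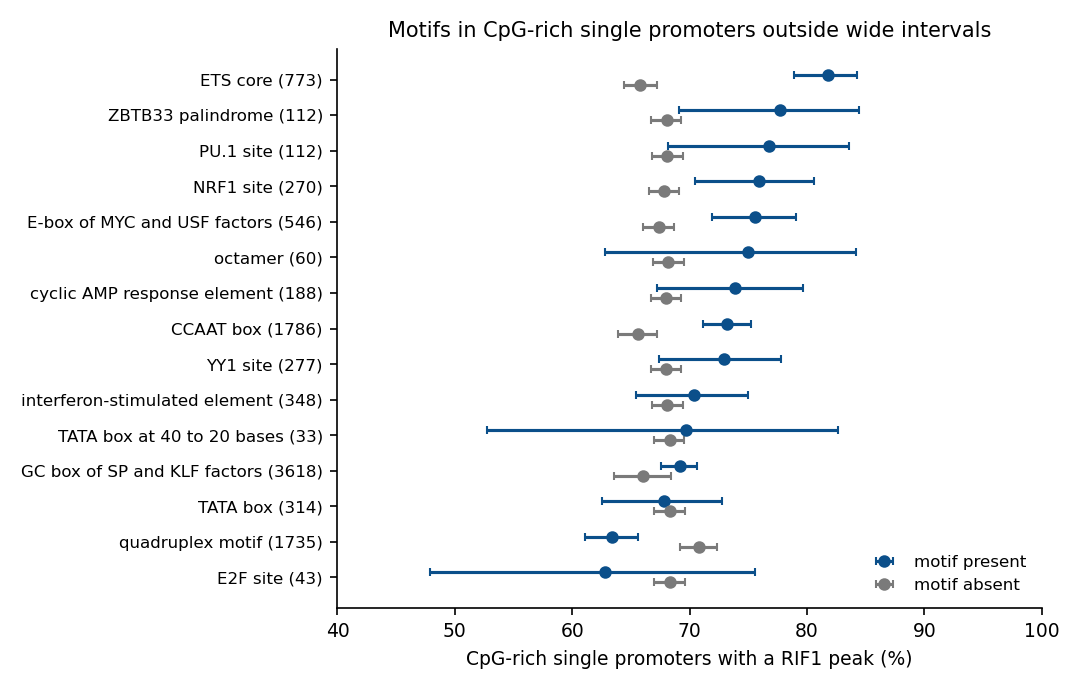
Share of CpG-rich single promoters outside wide intervals with a RIF1 peak (%), for promoters with a motif (blue) and without it (grey). Bars are 95% Wilson intervals, the number with the motif is given beside its name, motifs held by fewer than 20 promoters are left out, and the axis starts at 40%. The ETS core shows the widest gap, 81.8 against 65.8%, and the quadruplex motif lies on the other side, 63.4 against 70.8%.

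In CpG-poor promoters the ETS core was present in 3.94% (2.01 to 7.58%) of those with a peak and 1.31% (1.02 to 1.69%) of those without. The GC box was in 18.7% (14.0 to 24.6%) of those with a peak and 5.45% (4.83 to 6.15%) of those without, and was held by 6115 of all 15296 single promoters. The site of PU.1 (GAGGAAGT), an ETS factor of B and myeloid cells, was in 10.8% (7.27 to 15.9%) and 4.27% (3.72 to 4.90%). Over all promoters outside wide intervals it was in 3.21 and 3.23%, with overlapping intervals, and 3.33% of all single promoters held it. An interferon-stimulated element (AAANNGAAA) was in 24.1% (18.8 to 30.5%) and 15.8% (14.7 to 16.9%), and was held by 11.6% of all single promoters. Its direction was the opposite over all promoters outside wide intervals, at 8.88% with a peak and 13.5% without. The TATA box (TATAAA) at 40 to 20 bases before the 5′ end on the strand of the gene was in 1.97% (0.769 to 4.96%) and 5.12% (4.51 to 5.80%), where the intervals overlapped slightly. Anywhere in the window, on either strand, TATAAA was in 12.8% (8.89 to 18.1%) and 28.5% (27.2 to 29.8%), and the CCAAT box in 32.0% (26.0 to 38.7%) and 40.4% (39.0 to 41.8%). Base composition also differed within this class, with a median GC content of 49.0% with a peak and 43.6% without. The part of this in the motif differences was not tested.

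To see which genes these promoters belong to, gene lists were counted outside wide intervals and read against the 35.9% of all single promoters there. Their CpG content differs, so the share of CpG-rich promoters, 68.3%, is the nearer background for lists of growth genes. Each list is described by its counts, and none was tested.

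Among cell cycle control genes, 18 of 20 promoters outside wide intervals had a peak, all 18 at CpG-rich promoters. The widest were at Cdk6 (4344 bp, chr5), the gene of a kinase that drives entry into S phase, Myc (3262 bp, chr15), a regulator of growth, Mxd4 (2973 bp), whose product opposes MYC, and E2f3 (2738 bp), a factor of S phase genes. The peak at Myc lay 1176 bp downstream by its midpoint and that at Cdk6 1092 bp upstream. Ccnb2, the gene of a mitotic cyclin, had no peak although its promoter was CpG-rich, and Aurkb, the gene of a mitotic kinase, lay in a wide interval.

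DNA replication genes had a peak at 7 of 10 promoters outside wide intervals, all CpG-rich. These included Cdt1 (4388 bp), which loads the replicative helicase, Gins3 (2842 bp), a part of the active helicase, Cdc7 (2253 bp), the kinase that fires origins, and Mcm3 (1556 bp), a helicase subunit. At Mcm3 and Gins3 the midpoint lay 91 bp downstream and 231 bp upstream of the 5′ end. Cdc6 and Gmnn, which promote and block helicase loading, lay in wide intervals. Of the 31 annotated genes of this list, 18 had another gene start within 5 kb and so no single promoter.

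Genes of class switching and DNA break repair had a peak at 11 of 12 promoters. Rnf168 (3442 bp), a ubiquitin ligase that marks chromatin for 53BP1, Paxip1 (2875 bp), a partner of 53BP1, Rad50 (2776 bp) and Nbn (2219 bp), both of the break-sensing MRN complex, carried the widest. Trp53bp1, which encodes 53BP1 itself and was chosen after its value was seen, had a peak of 496 bp. H2afx, a histone variant of damaged chromatin, lay in a wide interval. Translation initiation factors had a peak at 14 of 15 promoters, with the widest at Eif2b5 (2752 bp) and Eif3b (2106 bp), both genes of factors that start protein synthesis. Splicing factors had 5 of 8, with Srsf6 (2015 bp) and Snrpb (1826 bp) the widest, and chromatin modifiers 9 of 12, with Kdm4a (2397 bp), a histone demethylase, and Eed (1937 bp), a subunit of Polycomb repressive complex 2, in front.

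B cell genes were often in wide intervals, which held 10 of 16 single promoters of B lineage transcription factors and 12 of 26 of B cell receptor signalling and surface proteins, against 20.7% of all. The shares of some other lists were like these, with 13 of 25 for chromatin modifiers, 9 of 20 for T cell genes and 6 of 14 for splicing factors. Bcl6, a regulator of germinal centre B cells, lay in a wide interval. Outside these, 4 of 6 factors had a peak. These were Pax5 (5021 bp, chr4:44723574-44728594), which sets B cell identity, Prdm1 (3814 bp), which drives plasma cells, Pou2af1 (2896 bp), a coactivator of octamer factors, and Runx1 (1848 bp), a regulator of blood cells. At Pax5 the midpoint was 1766 bp upstream and at Runx1 76 bp downstream. Of the signalling and surface proteins, 11 of 14 had a peak, only 3 of them at CpG-rich promoters. Blnk (3495 bp), whose promoter is shown above, Cd40 (2546 bp), a receptor of T cell help, Cd86 (2511 bp), a ligand for T cells, and Fcer2a (1808 bp), the low-affinity IgE receptor, had the widest. Their midpoints lay from 930 bp upstream at Fcer2a to 397 bp downstream at Cd40.

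Genes of LPS, NF-κB and IL-4 signalling, the pathways of the culture stimuli, had a peak at 13 of 19 promoters. Tlr4 (2996 bp), the LPS receptor, and Stat6 (2468 bp), the factor activated by IL-4, had peaks centred 30 and 76 bp downstream of the 5′ end. Rel (2382 bp), an NF-κB subunit, had its midpoint 1678 bp upstream, and Map3k7 (2375 bp), a kinase of the pathway, 561 bp upstream. Bcl3 lay in a wide interval. Ikbkb, the gene of an NF-κB kinase, had no peak at the 5′ end used, while 13 are annotated for it.

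Lists of genes of other cell types had lower shares. A peak was present at 3 of 11 promoters of T cell genes (9.75 to 56.6%), 2 of 14 of myeloid genes (4.01 to 39.9%) and 5 of 20 of neuronal genes (11.2 to 46.9%). These Wilson intervals include the 35.9% of all, so the counts do not set these lists below it. Liver genes had 0 of 22, where the Wilson interval reaches 14.9%. The T cell genes with a peak were Il7r (1708 bp), also a gene of B cell precursors, Ubash3a (1248 bp) and Bcl11b (317 bp). The myeloid genes with a peak were Cebpa (2261 bp) and Mertk (1574 bp). The lists of T cell, myeloid and liver genes held 1, 2 and 0 CpG-rich promoters outside wide intervals. Those of the T cell and myeloid lists all had a peak. Of CpG-rich promoters outside wide intervals, neuronal genes had a peak at 4 of 8 and developmental transcription factors at 10 of 22, against 68.3% of all. These counts are small, that of neuronal genes most of all, and the difference was not tested. Among the developmental factors Neurog2 (4199 bp), Olig2 (2950 bp) and Nkx6-1 (1817 bp), regulators of nerve and pancreas development, carried peaks, while Dlx5 had none. The median width was 1166 bp for the 14 member peaks at developmental factors and 2000 bp for the 20 at cell cycle genes.

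Families read from gene symbols, also chosen with these data known, extended the range. Mitochondrial ribosomal proteins had a peak at 27 of 28 promoters outside wide intervals (96.4%, 82.3 to 99.4%), with a median width of 1248 bp. Cytosolic ribosomal proteins had 12 of 16, subunits of respiratory complex I 9 of 11 and proteasome subunits and regulators 11 of 18. Genes of zinc finger proteins named Zfp, many of them repressors of transposons, had 91 of 137, and another 137 of their 274 single promoters lay in wide intervals. Solute carriers, at 77 of 205 (37.6%, 31.2 to 44.4%), were near the background. Subunits and partners of potassium channels, whose genes are named Kcn, had 12 of 69, and 6 of 32 where the promoter was CpG-rich.

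Receptors of smell, taste and pheromones had almost no peaks. Olfactory receptors had 2 of 995 promoters outside wide intervals (0.201%, 0.0551 to 0.730%), Olfr1509 (697 bp) and Olfr556 (423 bp). Vomeronasal receptors had 0 of 287, where the Wilson interval reaches 1.32%, taste receptors 0 of 31, beta-defensins of epithelia 0 of 30 and keratins 0 of 45. Most olfactory promoters there (929 of 995) were CpG-poor, a class with 4.32% in all. So were all 31 taste receptor promoters and 27 of the 30 of beta-defensins. The Wilson intervals of taste receptors and beta-defensins include 4.32%, so their counts do not set them below that class. Of the 45 keratin promoters, 28 were CpG-poor and 16 intermediate, a class with 29.5% in all. Many genes of these families have near copies, where uniquely aligned reads are fewer, and the part of this in the low shares was not tested.

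Interferon-inducible genes were counted after they had been seen among the CpG-poor promoters with a peak, and are described without a test. Of the 28 single promoters of this family outside wide intervals, 17 had a peak (60.7%, 42.4 to 76.4%), and of the 22 that were CpG-poor, 11 did, where 4.32% of all CpG-poor promoters did. Among them were Mx2 (3157 bp) and Mx1 (1571 bp), genes of the Mx family of antiviral GTPases. Gbp2 (2457 bp) and Gbp3 (2323 bp), guanylate-binding proteins that act on intracellular microbes, were also among them. So were Ifit3 (1276 bp), Oas3 (1283 bp) and Rsad2 (696 bp), which act against viral RNA and replication. The 5′ end was covered at each of these genes. Gbp5 (2405 bp) and Usp18 (1310 bp), a brake on interferon signalling, had intermediate promoters with a peak. Promoters without a peak included Gbp1, Ifi44, Oas2 and Oas1a, of which the last has several near copies, and another 18 promoters of the family lay in wide intervals.

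Other CpG-poor promoters with a peak are again named after their values were seen, as examples. Several belong to genes of lymphocytes, but such genes were not counted over all CpG-poor promoters with and without a peak. Dnase1l3 (7364 bp), the gene of a secreted nuclease, and Pdcd4 (6460 bp), an inhibitor of translation, had wide members. Cd79b (1021 bp), a chain of the B cell receptor, Blk (1069 bp), a kinase of that receptor, Cd180 (924 bp), a Toll-like receptor homologue of B cells, and Bank1 (590 bp), a B cell scaffold, had narrow ones that all covered the 5′ end. Sfpi1 (2118 bp), which encodes PU.1, and Btla (2046 bp), an inhibitory receptor, were between them in width. Of the other immune families, ligands and receptors of the TNF family had a peak at 8 of 15 promoters (53.3%, 30.1 to 75.2%). Interferon regulatory factors had 2 of 2 (34.2 to 100%). Interleukins, their receptors and antagonists had 12 of 47 (25.5%, 15.3 to 39.5%). Among them were Il21r (2592 bp) and Il4ra (1365 bp), a chain of the receptor for IL-4. Chemokines and their receptors had 6 of 36 (16.7%, 7.87 to 31.9%), among them Cxcl10 (2289 bp). The shares of interleukins and chemokines were under the 35.9% of all single promoters outside wide intervals, which the interval of the interleukins includes. At CpG-poor promoters interleukins had 4 of 30, chemokines 1 of 25 and the TNF family 3 of 6, where 4.32% of all had a peak.

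**Figure D5:**
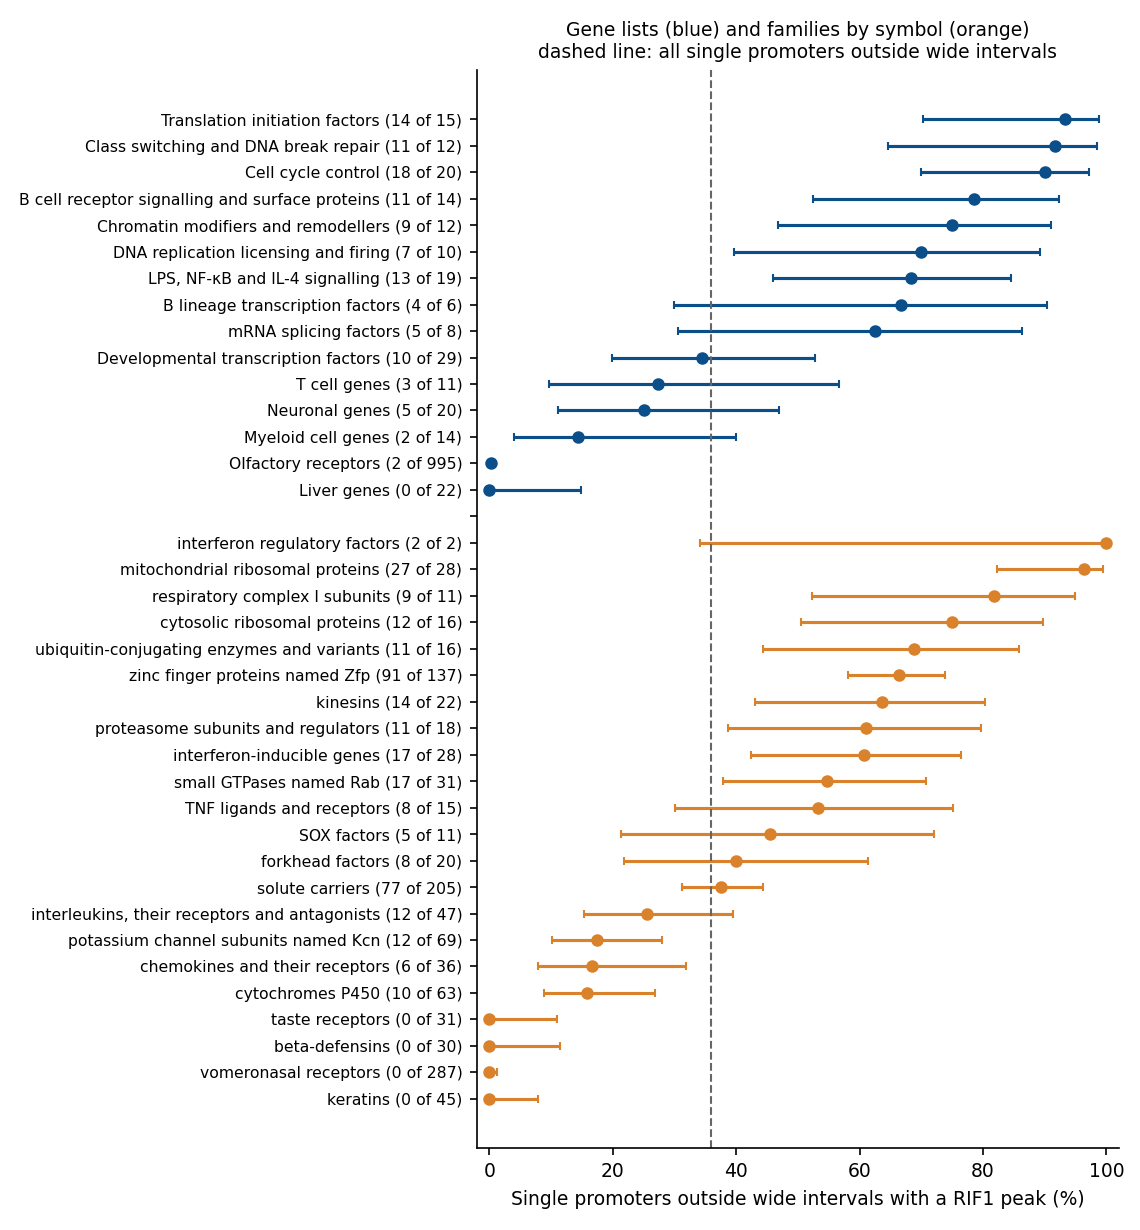
Share of single coding promoters outside wide intervals with a RIF1 peak (%), for gene lists (blue) and families read from the gene symbol (orange), with the number with a peak and the number of promoters in brackets. Bars are 95% Wilson intervals and the dashed line marks the 35.9% of all single promoters outside wide intervals. Cell cycle, repair and translation genes lie at 90.0% and above, and liver genes, keratins and sensory receptors at or near 0. Lists and families differ in CpG content, and 68.3% of CpG-rich and 4.32% of CpG-poor promoters outside wide intervals had a peak.

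Members were found on all 19 autosomes. The share of single promoters with a peak was 29.7 ± 5.46% (SD, n = 19 chromosomes) and ranged from 15.3% on chromosome 7 to 38.4% on chromosome 12. Outside wide intervals and within CpG-rich promoters the spread was smaller relative to the mean, at 68.6 ± 4.67%, from 59.8% on chromosome 4 to 75.8% on chromosome 13. CpG-rich promoters with other peaks nearby had a peak more often, as the share was 61.1% with no other listed peak within 50 kb, 69.1% with 1 and 74.9% with 2. With 3 or 4 it was 73.9%, so that it did not rise further.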

How the data were processed

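RIF1 ChIP-seq was measured in 2 Rif1FH and 2 Rif1WT samples. As the submitters' processing notes and the study's methods describe, the authors trimmed reads with Trim Galore (0.6.4), aligned them uniquely to mm9 with Bowtie (1.0.0), called narrow and broad peaks per replicate with MACS2 (2.2.6) and wide domains with EDD, and merged them with bedtools (2.27.1), keeping calls made in both replicates. The deposited list has 3 columns, chromosome, start and end, with no count, signal or score. As only uniquely aligned reads and calls made in both replicates were kept, weak sites and sites in repeats may be missing. Depth per sample is unknown. How the untagged samples entered the calling is not given in the sources used here.

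Positions were read from 1 and matched to genes (GENCODE M1, 37310 genes) and sequence of build NCBIM37, which is mm9. The rule counts other genes by their gene-level 5′ end. One interval running past its chromosome end lay among those kept. Peak classes, CpG classes, motifs, gene lists and families were counted in Python 3.11.15 with numpy 2.4.6, scipy 1.17.1 and pysam 0.24.0. Assignment was tested on simulated data, where 143 of 143 members were found. No test was run, as 1 list gives no replicates. Promoters in wide intervals were left out of motif, bin and list comparisons, a choice made after seeing the data, and the members and lists were chosen with earlier results of these data known. Genes named are, per list, up to 4 with the widest members and up to 2 without a peak in alphabetical order, plus the widest, the narrowest, those with most members and those at the window edge, and others named are said to be chosen later. Window, isolation, overlap and width alternatives were tried. A few genes that this rule would name are not reported here.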

Additional observations from a re-analysis of the deposited data

Results flagged for a closer look

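The rule leaves out the X chromosome, so its peaks are outside the comparisons and were looked at separately. Of 697 single coding promoters on X, 161 had a listed peak (23.1%, 20.1 to 26.4%), and the 162 peaks there had a median width of 1283 bp. No untagged control value is listed to set beside this.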

How the results depend on the processing

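Each of 6 results was recomputed under other settings in 45 comparisons. In 26 the value moved by less than its 95% interval (the number by less than 1.5 times), in 19 it moved further, and in 0 did the offset turn upstream. The median offset and, except for the wider peaks, the number of members stayed within these limits under every setting run. With windows of 500 bp the share of promoters with a peak was 27.7% and that of CpG-poor promoters 3.10%, and with 2 kb the latter was 4.38%. Isolation of 2 kb gave 27.8% and, for CpG-rich promoters, 51.9%, and 10 kb gave 29.6% and 54.6%. Requiring 50% of the peak in the window gave 26.2%, with 49.7% of CpG-rich and 2.73% of CpG-poor promoters and a median width of 1542 bp. Only peaks at or above the median width of all peaks left 2786 members, 2014 bp wide at the median, at 18.2% of promoters, 35.0% of CpG-rich and 2.34% of CpG-poor ones. Outside wide intervals the shares were 35.9, 68.3 and 4.32%. The shifts follow from which peaks or promoters each setting keeps. No paired analysis was possible because both replicates were merged into 1 list of positions. For the same reason no replicate could be left out, and no score was present for a stricter threshold.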
